A study of Mus musculus with 48 samples.

Results

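Inguinal white fat of adult mice was examined for 10 genes of the unfolded protein response and the integrated stress response. The genes were chosen by symbol in the deposited gene count table, all 10 were found among its 54532 genes, and all 10 passed the low-count filter that left 19977 genes for testing. Xbp1, Hspa5, Herpud1, Sdf2l1 and Dnajb9 form the endoplasmic reticulum (ER) chaperone arm, and Atf4, Ddit3, Trib3, Asns and Chac1 form the Atf4 arm. The symbol Ddit3 stands on 2 rows, of which the shorter, 105 bases long, held 0 counts in all libraries and was not tested.

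When unfolded proteins accumulate in the ER, the sensors Ire1, Perk and Atf6 are activated. Ire1 splices the Xbp1 mRNA, and the resulting factor, together with cleaved Atf6, raises chaperones and degradation components. Perk and related kinases phosphorylate the initiation factor eIF2, which slows protein synthesis while favouring translation of Atf4. Atf4 then drives genes for amino acid supply and, under long stress, for cell death. In fat, insulin, amino acids and secretory load are known inputs to both arms. Gene counts do not separate spliced from unspliced Xbp1 and do not measure Atf4 protein.

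The study compared C57BL/6 male mice with free access to chow (ad-lib) with mice fed in 2 windows a night (TAN), between 9 and 11 p.m. and between 5 and 7 a.m. in a dark phase from 8 p.m. to 8 a.m. Mice were 8 months old by the labels and the regimen had run for 6 months. Inguinal fat (iWAT) was taken at the labelled times 8AM, 12PM, 4PM, 8PM, 12AM and 4AM from 4 mice per diet and time, 48 mice in all, and each mouse gave 1 library and 1 time point. By the labels, 12AM and 8AM fall 1 h after a meal window closed, 4AM and 12PM 5 h, 4PM 9 h and 8PM 13 h. Libraries held 15636378 to 29913310 counts. The series' design text describes the stromal vascular fraction whereas the paper describes whole tissue, and the adipocyte markers were abundant in every library, with a summed level of 1448 to 15934 CPM (counts scaled to a fixed library total, the usual depth-normalised read count).

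The tables that accompany the paper list the same libraries under times 12 h apart from those in the sample labels. The sample labels were used here. The clock-controlled gene Dbp, whose mRNA is known to peak late in the light phase in mouse tissues, was measured at 85.8 to 127 CPM in the ad-lib libraries labelled 4PM and at 10.3 to 69.1 CPM in those labelled 4AM. In the TAN libraries the same gene stood at 75.4 to 215 CPM at 4PM and at 6.61 to 13.5 CPM at 4AM. Tests of variation over time, of the diet by time interaction, of daily components and of the mean diet effect do not change when all times move by 12 h. The comparison of fed with fasted hours does, and is given with both readings.

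The cellular makeup of the libraries was uneven. The summed level of 10 lymphocyte markers (Cd3e, Ccr7 and others) spanned 10.1 to 3222 CPM, and no marker of the list was at 0 counts in any library. Of the plasma cell markers, Mzb1 was at 0 counts in 2 libraries and Tnfrsf17 in 4. Scaled by library total alone, Ighm reached 2559 CPM, Igkc 2531 CPM, Jchain 613 CPM and Mzb1 67.1 CPM. Ighm and Igkc thus weigh most in the plasma cell sum. Whether that sum reflects plasma cells or other B cells was not tested. At 4PM the lymphocyte sum was 10.1 to 406 CPM in TAN and 1144 to 1942 CPM in ad-lib, the plasma cell sum (8 markers) was 228 to 671 CPM against 1904 to 4731 CPM, and the adipocyte sum (6 markers) was 9779 to 12059 CPM against 4106 to 7003 CPM. None of these 3 ranges overlapped between the diets. In TAN at 12AM, 3 of 4 libraries had a lymphocyte sum below 500 CPM, against 0 of 4 at each of 8AM, 12PM and 4AM. The median adipocyte sum of that group was 11651 CPM, against 6313 CPM in TAN at 8AM and 6494 CPM at 4AM. Its median plasma cell sum was 374 CPM, against 1630 and 1706 CPM. Ad-lib groups were mixed as well. Their lymphocyte sum was below 500 CPM in 2 of 4 libraries at 8AM, 2 of 4 at 12PM and 1 of 4 at 4AM. It was so in 0 of 4 at each of 4PM, 8PM and 12AM. The ad-lib adipocyte sum at 8AM ran from 3835 to 14819 CPM. TAN replicates 1 and 2 at 8PM had the lowest adipocyte sums and the highest lymphocyte sums of the series. The main results that rest on them are given with and without them. Fits that held a marker level as a covariate were run, and their values stand beside the results they moved. In bulk tissue, fewer cells of a type and less RNA per cell cannot be told apart.

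**Figure D1:**
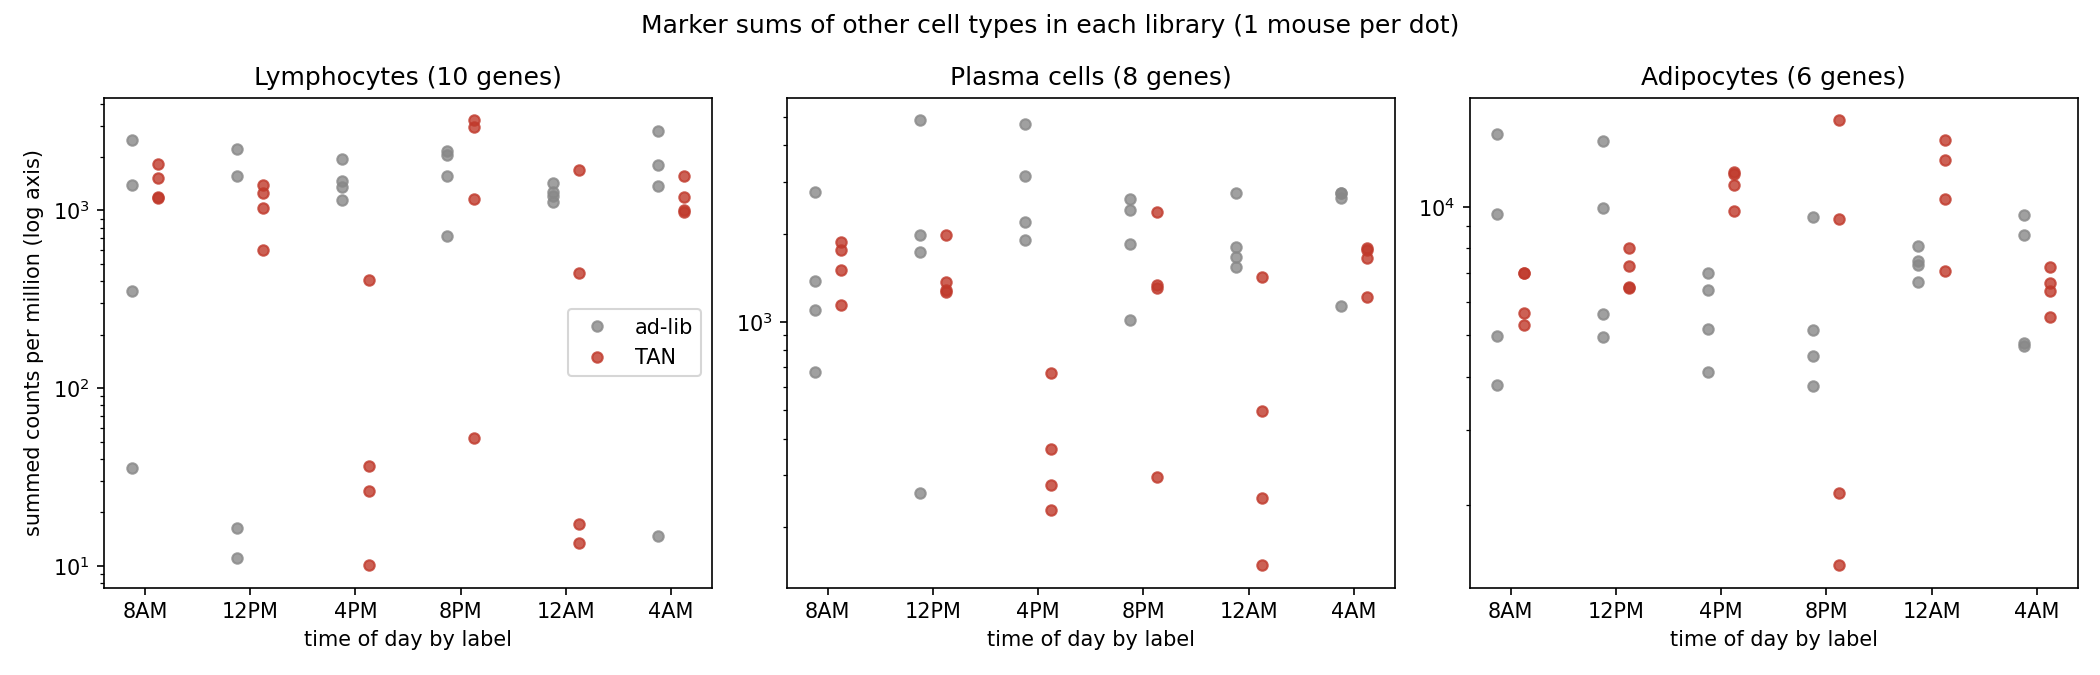
Summed CPM (log axis) of the lymphocyte, plasma cell and adipocyte markers in each library against the labelled time, with ad-lib in grey and TAN in red and 1 mouse per dot. The TAN libraries at 4PM lay at 10.1 to 406 CPM for lymphocytes, all below the ad-lib libraries at that time.

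Promoter sequence was available for all 10 members, as RefSeq windows of build GRCm38.p6 reaching from 250 bases before to 50 bases after the start site. Each window was searched on both strands for the ER stress response element (CCAAT and CCACG with 9 bases of any kind between them), its second form (ATTGG and CCACG with 1 base between them), the unfolded protein response element TGACGTGG and the C/EBP-ATF response element TGATGNAA, the site class through which Atf4 acts. These letters occurred in 0.119%, 0.0365%, 0.676% and 3.97% of all 32851 windows. Hspa5 held the first, Herpud1 the second, and Herpud1, Trib3, Asns and Chac1 the last, while none of the 4 was in the windows of Xbp1, Sdf2l1, Dnajb9, Atf4 and Ddit3. The matches are shown because factors of the 2 arms are known to act through these elements. Capitals mark the match, and all are written 5′ to 3′ on the strand of the gene.
Hspa5, chr2:34772020-34772049, plus strand: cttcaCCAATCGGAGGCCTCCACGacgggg
Herpud1, chr8:94386179-94386428, plus strand: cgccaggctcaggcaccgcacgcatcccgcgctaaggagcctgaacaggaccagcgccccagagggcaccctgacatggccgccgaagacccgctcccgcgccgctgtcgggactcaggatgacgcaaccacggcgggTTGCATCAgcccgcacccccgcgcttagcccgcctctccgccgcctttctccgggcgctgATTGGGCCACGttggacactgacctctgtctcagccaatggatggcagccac
Asns, chr6:7693214-7693243, minus strand: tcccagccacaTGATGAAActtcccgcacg
Trib3, chr2:152344028-152344057, minus strand: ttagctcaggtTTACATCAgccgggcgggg
Chac1, chr2:119350992-119351228, plus strand: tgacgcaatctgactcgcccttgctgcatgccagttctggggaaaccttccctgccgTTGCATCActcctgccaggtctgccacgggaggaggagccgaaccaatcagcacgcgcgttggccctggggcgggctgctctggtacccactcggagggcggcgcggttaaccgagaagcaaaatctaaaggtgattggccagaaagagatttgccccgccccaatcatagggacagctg
The Herpud1 window thus held a match of each kind, at positions -52 to -42 (ER element) and -112 to -105 (C/EBP-ATF element, reverse strand) relative to the RefSeq start site. The matches of Hspa5 (-65 to -47) and Asns (-23 to -16) lie before that start but inside an exon of a longer annotated transcript, and that of Chac1 (-193 to -186) lies outside exons. The match of Trib3 lies 14 to 21 bases after the RefSeq start site, outside the exons of the annotation used.

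The members differed widely in level. On a scale of CPM per kilobase of transcript (CPM per kb), the median over 48 libraries was 111 for Hspa5 (the chaperone BiP; chr2:34771970-34777547, build GRCm38), 106 for Xbp1 (chr11:5520659-5525893), 55.9 for Atf4 (chr15:80255184-80257541), 49.5 for Herpud1 (chr8:94386438-94395377) and 44.7 for Asns (chr6:7675169-7693254). Lower medians were found for Dnajb9 (chr12:44205559-44210326) at 25.5, Sdf2l1 (chr16:17130138-17132383) at 16.1, Ddit3 (chr10:127290774-127296288) at 14.4, Trib3 (chr2:152337422-152344032) at 4.31 and Chac1 (chr2:119351229-119354381) at 2.36 CPM per kb. Hspa5 (70.4 to 268) and Xbp1 (50.9 to 224) overlapped across libraries, as did every other pair of neighbours in this order. Chac1 was sparse, with as few as 9 counts in a library. Ddit3 overlaps the antisense genes Mars and Gm4189, with 68 bases as the largest single overlap. Herpud1 overlaps the antisense gene Gm15890 over 535 bases and Dnajb9 the antisense gene Mir5627 over 14 bases. Since the labels describe directional and non-directional libraries without saying which was used, reads from such overlaps cannot be assigned to a strand.

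Most members varied over the day in TAN mice. In an F test over the 6 times (edgeR quasi-likelihood, adjusted over all genes), 7 of 10 members were called in TAN, namely Hspa5, Herpud1 and Dnajb9 of the ER arm and Atf4, Ddit3, Trib3 and Asns of the Atf4 arm, where 23% of all genes tested were called. At an unadjusted p under 0.05 the count was 9 of 10, beside 42.2% of all genes. In ad-lib mice 0 of 10 were called in the same test, where 0.0551% of all genes were, and 4 members had an unadjusted p under 0.05, beside 6.67% of all genes. Without TAN replicates 1 and 2 at 8PM the count in TAN was 8, with Xbp1 added. A test of whether the time course itself differed between the diets called Hspa5 alone (adjusted p = 0.0296, edgeR), with 8.98% of all genes called, and 7 members had an unadjusted p under 0.05, beside 30.2% of all genes. That call was lost without ad-lib replicate 4 at 8AM (adjusted p = 0.0627, edgeR) and without TAN replicate 2 at 8AM, and 4 members were called without TAN replicates 1 and 2 at 8PM.

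**Figure D2:**
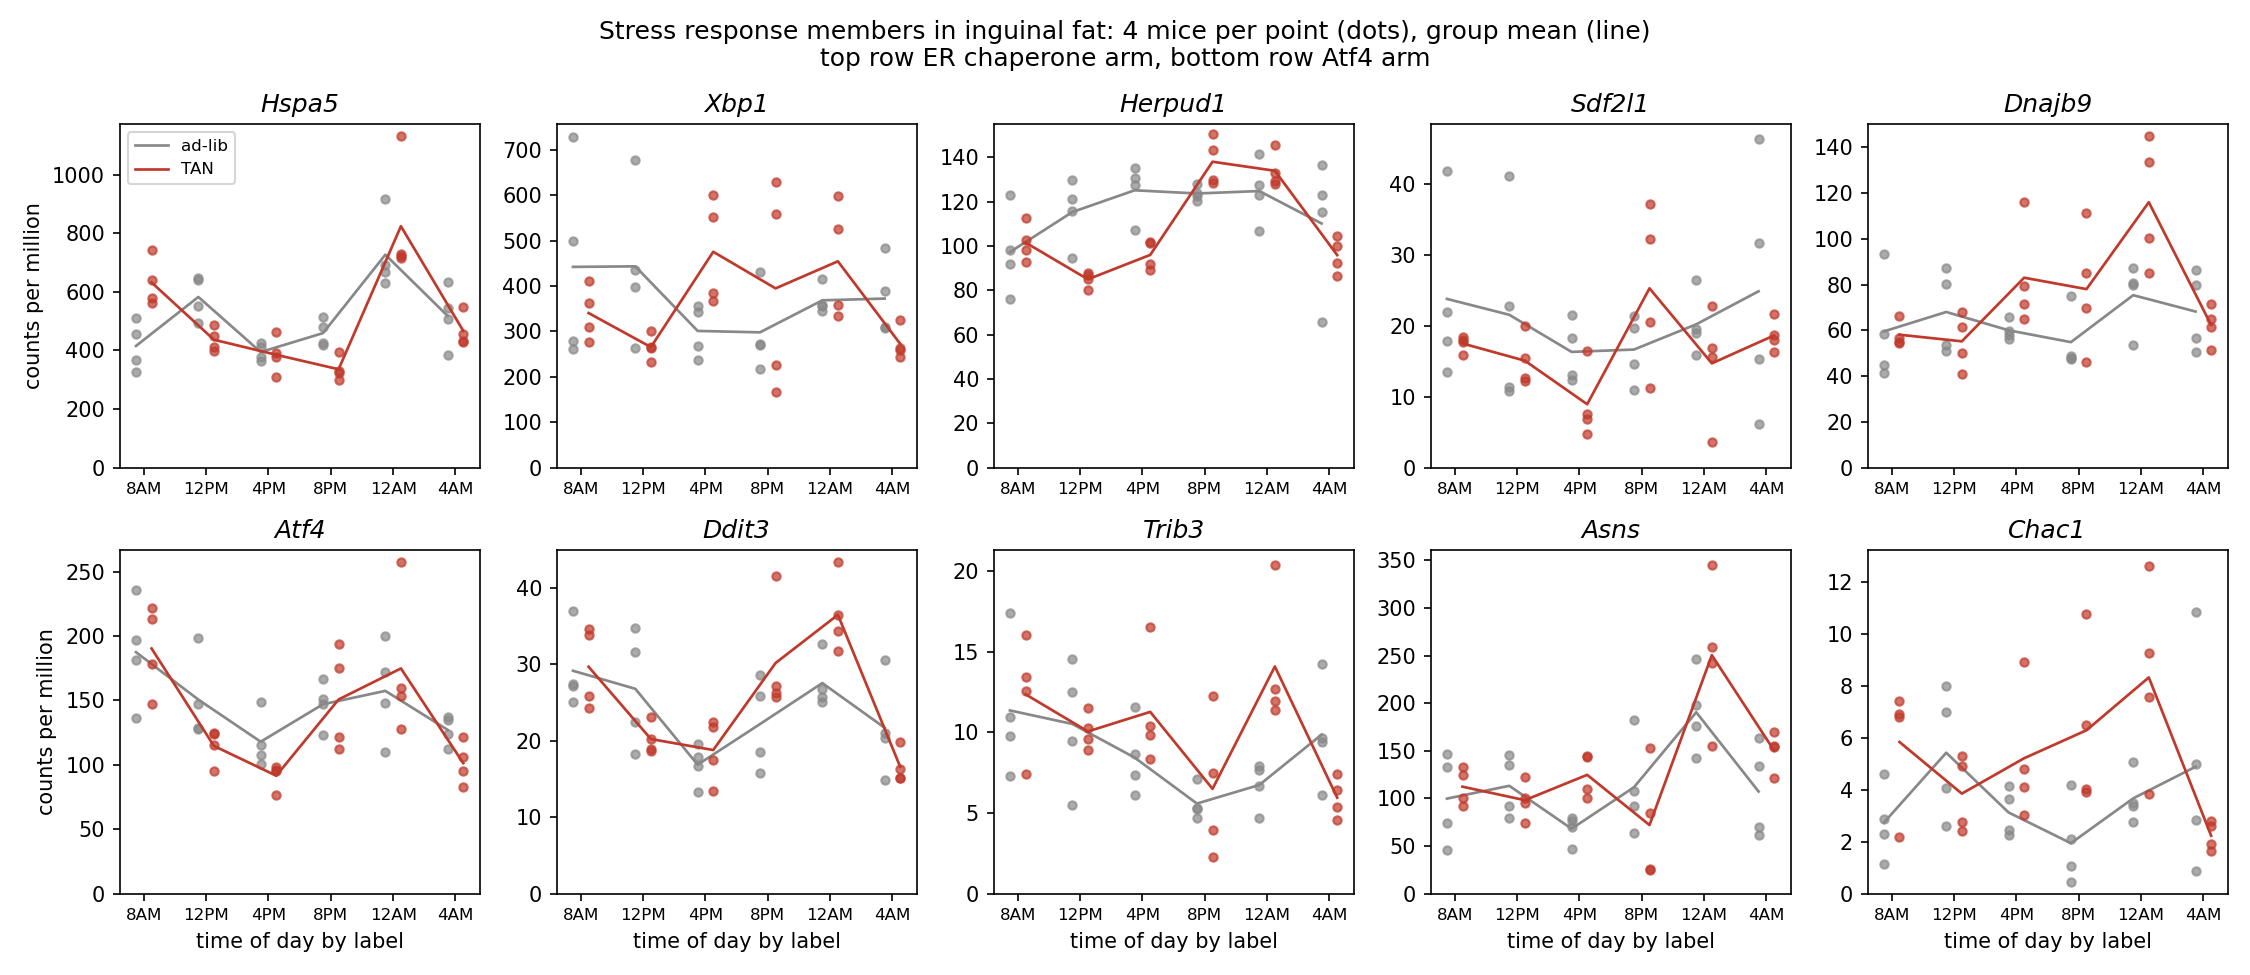
CPM of each member against the labelled time, with 4 mice per diet and time as dots and group means as lines, ad-lib in grey and TAN in red; the ER chaperone arm is in the top row and the Atf4 arm in the bottom row. In TAN, Hspa5, Dnajb9, Ddit3, Trib3, Asns and Chac1 had their highest group mean at 12AM. In that group 3 of 4 libraries had a lymphocyte sum below 500 CPM, and the median adipocyte sum was 11651 CPM.

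Hspa5 encodes BiP, the main ER chaperone and the protein that holds the stress sensors inactive. In TAN mice it was measured at 714, 722, 730 and 1132 CPM at 12AM and at 564, 580, 642 and 743 CPM at 8AM. It stood at 308, 379, 392.4 and 462 CPM at 4PM and at 298, 322, 329 and 394 CPM at 8PM. Every library of 12AM and 8AM was above every library of 4PM and 8PM, a separation seen in the same direction in 0.29% of all genes tested. The variation over time had an adjusted p of 2.46e-05 (edgeR) and 1.21e-05 to 0.000417 when each library was left out in turn. In ad-lib mice the level was 630, 669, 692 and 919 CPM at 12AM but 328, 367, 457 and 510.5 CPM at 8AM, and 494 to 647 CPM at 12PM. The ad-lib mice thus shared the 12AM maximum, whereas the second high level lay at 8AM in TAN and at 12PM in ad-lib. At 8AM the 4 TAN libraries were all above the 4 ad-lib libraries and at 12PM all below them, with log2 fold changes of 0.61 (SE 0.18, adjusted p = 0.448) and -0.42 (SE 0.18, adjusted p = 0.610) that did not pass the test at either time (edgeR). Groups of the diets were so separated, in either direction, in 3.07% of all genes at 8AM and in 4.84% at 12PM. At each of these times 2 of 4 ad-lib libraries had a lymphocyte sum below 500 CPM. For ad-lib alone the variation over time of Hspa5 had an adjusted p of 0.0692 (edgeR), and 0.0294 with the lymphocyte markers as a covariate. With 1 library left out it ran from 0.0474 to 0.337 and passed the threshold in 1 of 48 fits (edgeR).

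Herpud1, an ER membrane protein that organises degradation of misfolded proteins, followed a different course. In TAN mice it was 128, 130, 143 and 151 CPM at 8PM and 128, 129, 133 and 146 CPM at 12AM, against 79.9, 85.1, 87.0 and 87.7 CPM at 12PM. The 8PM and 12AM libraries were all above those of the other 4 times, which reached 113 CPM. In ad-lib mice the group means ran from 97.2 ± 19.4 CPM (SD, n = 4) at 8AM to 125 ± 12.4 CPM at 4PM, a range within the spread of the libraries. The adjusted p over time was 0.00298 in TAN and 0.866 in ad-lib (edgeR).

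Dnajb9, an ER co-chaperone of BiP also known as ERdj4, was highest in TAN at 12AM with 85.1, 100.5, 134 and 145 CPM. It stood at 40.8 to 68.2 CPM at 12PM and at 51.3 to 71.6 CPM at 4AM, with no overlap with the 12AM libraries. In ad-lib mice its group means ran only from 54.8 ± 13.4 CPM at 8PM to 75.4 ± 14.8 CPM at 12AM (SD, n = 4). Its adjusted p over time was 0.00957 in TAN, and in ad-lib the unadjusted p was 0.479 (edgeR).

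The remaining ER arm genes did not pass the test of variation over time in either diet. Xbp1, the transcription factor of this arm, spread over 165, 226, 558 and 629 CPM within the TAN mice at 8PM alone, and replicates 1 and 2 of that group were the 2 with low adipocyte sums. Its adjusted p over time in TAN was 0.103 (edgeR), and 0.0148 without these 2 libraries, but 0.511 with the lymphocyte markers as a covariate. Sdf2l1, a component of the BiP chaperone complex, was 4.8, 6.86, 7.57 and 16.5 CPM in TAN at 4PM and 11.3, 20.5, 32.2 and 37.2 CPM at 8PM (adjusted p over time = 0.152, edgeR). The lower Sdf2l1 values at 4PM stood beside the low plasma cell sum of that group (median 323 CPM). In TAN at 12AM the median plasma cell sum was 374 CPM, and Sdf2l1 was 3.60, 15.6, 16.8 and 22.8 CPM. A link between the 2 was not tested.

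In the Atf4 arm, Atf4 itself was 76.8, 95, 96.1 and 98.3 CPM in TAN mice at 4PM and 147, 179, 213 and 222 CPM at 8AM. At 12AM it was 128, 154, 160 and 258 CPM and at 4AM 82.6, 95.5, 106 and 121 CPM. Both groups taken 1 h after a meal by the labels lay above the groups taken at 4PM and 4AM, but overlapped the group with the longest fast, 8PM, which stood at 112, 121, 175 and 194 CPM. The adjusted p over time was 0.00114 in TAN and 0.714 in ad-lib (edgeR), although the ad-lib mice also had their highest mean at 8AM (187 ± 41.1 CPM, SD, n = 4) and their lowest at 4PM (118 ± 21.2 CPM).

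Ddit3, the pro-apoptotic factor CHOP, was 31.7, 34.3, 36.4 and 43.4 CPM in TAN at 12AM, and 15.1, 15.1, 16.3 and 19.8 CPM at 4AM. All 12AM libraries were above all libraries of 12PM, 4PM and 4AM, whereas those of 8PM, at 25.7, 26.3, 27.1 and 41.6 CPM, and of 8AM, at 24.3 to 34.7 CPM, overlapped them. Asns, the enzyme that makes asparagine, was 155, 243, 259.5 and 345 CPM in TAN at 12AM and 24.6, 25.7, 84.3 and 153 CPM at 8PM. The lowest Asns values of the series were those of the 2 TAN libraries at 8PM with low adipocyte sums, and the adjusted p over time in TAN was 0.0127 (edgeR) with them and 0.0155 without them. It was 0.0591 without TAN replicate 2 at 12AM.

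Trib3, a pseudokinase that feeds back on Atf4 and Akt, was 11.4, 11.9, 12.7 and 20.4 CPM in TAN at 12AM and 4.55, 5.40, 6.42 and 7.44 CPM at 4AM. Its adjusted p over time in TAN was 0.0325 (edgeR) and was above the threshold without TAN replicate 3 at 12AM (0.0787), TAN replicate 1 at 8PM or TAN replicate 1 or 2 at 4AM, and with the plasma cell markers as a covariate (0.0538). Chac1, a glutathione-degrading enzyme, was 3.83, 7.56, 9.27 and 12.6 CPM in TAN at 12AM and 1.63, 1.92, 2.59 and 2.78 CPM at 4AM. These 2 groups did not overlap, but over all 6 times the adjusted p was 0.108 (edgeR).

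The time courses were split into a 24-h component and a 12-h component. In TAN, 3 of 10 members had a 24-h component, all in the ER arm, where 19.8% of all genes were called, and 3 of 10 had a 12-h component, where 2.07% were called. At an unadjusted p under 0.05 these counts were 7 (24 h, beside 35.1% of all genes) and 5 (12 h, beside 23.9%). The 24-h amplitude was 0.40 log2 units for Hspa5 (adjusted p = 0.00142), 0.32 for Herpud1 (adjusted p = 0.00203) and 0.43 for Dnajb9 (adjusted p = 0.00909) in edgeR's F test. For the 12-h component the amplitude was 0.48 for Atf4 (adjusted p = 0.00721), 0.47 for Ddit3 (adjusted p = 0.0139) and 0.30 for Hspa5 (adjusted p = 0.0442) in the same test. In amplitude alone, the 12-h component was the larger for all 5 genes of the Atf4 arm in TAN, and the 24-h component was the larger for 4 of 5 genes of the ER arm, Sdf2l1 being the exception. In ad-lib mice the 12-h component was likewise the larger for 4 of 5 genes of the Atf4 arm, Trib3 being the exception, and for 2 of 5 of the ER arm, and its amplitude for Hspa5 was 0.37 in ad-lib against 0.30 in TAN. This split of the arms is a description, since the difference between the 2 amplitudes was not tested. Of the 12-h calls only Atf4 was kept without TAN replicates 1 and 2 at 8PM (Hspa5 then had an adjusted p of 0.144 and Ddit3 of 0.0694), and the 24-h count rose to 5 under the lymphocyte and plasma cell covariates (with Asns and Atf4 added), under the adipocyte covariate (Asns and Ddit3) and without those 2 libraries (Asns and Xbp1). Leaving out 1 library at a time, the 12-h call of Hspa5 was lost in 32 of 48 fits. In ad-lib mice 0 of 10 members were called for either component, where 0.0801% (24 h) and 0.015% (12 h) of all genes were, and 4 had an unadjusted p under 0.05 for each, beside 11.4% and 4.41% of all genes. With 6 times, a 12-h component rests on 3 points per cycle.

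**Figure D3:**
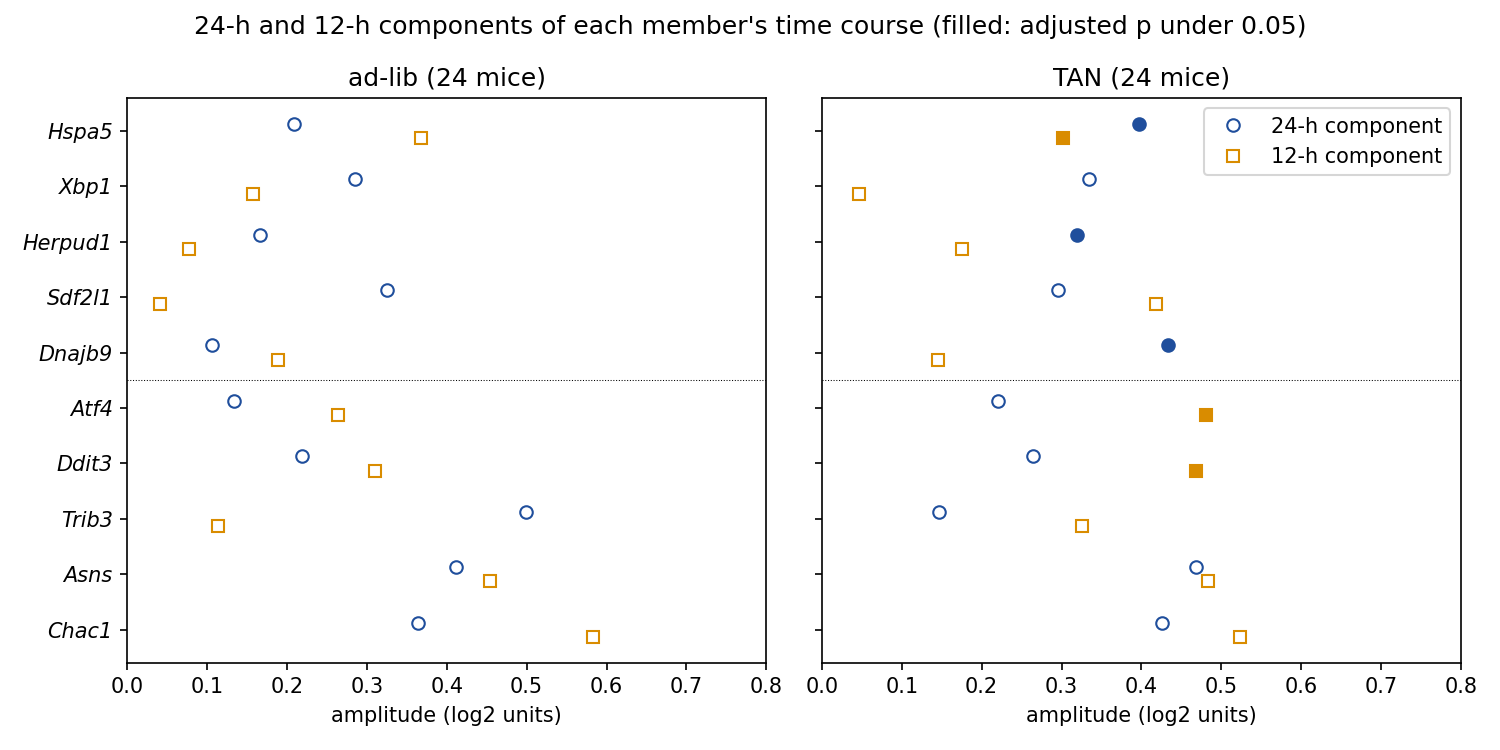
Amplitude in log2 units of the 24-h component (blue circles) and of the 12-h component (orange squares) for each member in ad-lib (left) and TAN (right) mice, 24 mice each, filled where the adjusted p was under 0.05. In TAN the filled 24-h symbols belong to Hspa5, Herpud1 and Dnajb9, and the filled 12-h symbols to Hspa5, Atf4 and Ddit3.

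Fed hours (12AM and 8AM, 1 h after a meal by the labels) were compared with fasted hours (4PM and 8PM, 9 and 13 h after a meal), with 8 libraries on each side. In TAN, 2 of 10 members were higher in fed hours and 0 were lower, where 3.3% of all genes were higher and 1% lower. An unadjusted p under 0.05 was found for 5 members, beside 18.7% of all genes. Hspa5 had a median of 718 CPM (564 to 1132) in fed hours and of 354 CPM (298 to 462) in fasted hours, with a log2 fold change of 1.01 (SE 0.13, adjusted p = 3.55e-06, edgeR), a 2.01-fold difference. Atf4 had a median of 169 CPM (128 to 258) against 105 CPM (76.8 to 194), with a log2 fold change of 0.63 (SE 0.15, adjusted p = 0.00765, edgeR) and overlapping ranges. With the lymphocyte markers as a covariate these log2 fold changes were 1.04 and 0.68, and without TAN replicates 1 and 2 at 8PM they were 0.98 and 0.62, all past the threshold.

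In each arm 1 of 5 genes was called. In TAN, the log2 fold changes of the other ER arm genes were -0.14 for Xbp1, 0.02 for Herpud1, 0.09 for Sdf2l1 and 0.03 for Dnajb9, so that the arm median of 0.03 lay near the all-gene median of 0.08 while Hspa5 was 2.01-fold higher. All 5 genes of the Atf4 arm had positive values, 0.47 (SE 0.15, adjusted p = 0.0737) for Ddit3, 0.63 (SE 0.25, adjusted p = 0.151) for Trib3, 0.82 (SE 0.28, adjusted p = 0.0787) for Asns and 0.28 (SE 0.39, adjusted p = 0.763) for Chac1 beside Atf4 (edgeR), with an arm median of 0.63. Asns and Trib3 passed the threshold with the lymphocyte markers as a covariate (log2 fold changes 1.08 and 0.75, adjusted p 0.00163 and 0.0428, edgeR), as did Ddit3 (0.51, adjusted p = 0.0254). Without TAN replicates 1 and 2 at 8PM the values fell to 0.46 for Asns and 0.32 for Trib3, neither past the threshold, and that of Ddit3 was 0.56 (adjusted p = 0.0435, edgeR). Leaving out TAN replicate 4 at 8PM raised the number of members called from 2 to 4.

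In ad-lib mice at the same labelled times, 0 of 10 members were called, where 0.035% of all genes were, and 4 had an unadjusted p under 0.05, beside 10.6% of all genes. Hspa5 had a log2 fold change of 0.37 (SE 0.13, adjusted p = 0.330), Atf4 of 0.38 (SE 0.15, adjusted p = 0.365), Ddit3 of 0.55 (SE 0.16, adjusted p = 0.269) and Asns of 0.66 (SE 0.28, adjusted p = 0.395) in edgeR. The arm medians were 0.37 and 0.38, beside -0.02 for all genes. The difference between the diets in this contrast did not pass the test for any member (0 of 10, where 0.831% of all genes did, with 1 member at an unadjusted p under 0.05, beside 19.1% of all genes). For Hspa5 the TAN contrast exceeded the ad-lib contrast by 0.64 log2 units (SE 0.18, adjusted p = 0.0579, 95% interval 0.28 to 0.998, edgeR). The adjusted p was 0.0118 in DESeq2, 0.0312 in limma voom and 0.0297 with the lymphocyte markers as a covariate. In edgeR it was 0.0569 with RLE scaling, 0.0708 without a count filter, 0.0652 with the replicate block and 0.0633 with the skeletal muscle markers as a covariate. Against the other 4 times it was 0.147, and with 1 library left out it ran from 0.0263 to 0.117 (edgeR).

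If the times were instead those of the paper's tables, 12 h away, the fed hours would be the groups labelled 12PM and 8PM and the fasted hours those labelled 4AM and 8AM. Hspa5 in TAN would then be lower in fed hours, with a log2 fold change of -0.50 (adjusted p = 0.0433, edgeR), and Atf4 would be at -0.08 (adjusted p = 0.842). The direction of the fed-hour result therefore rests on the sample labels. Under these labels Dbp, as given above, was higher at 4PM, in the light phase, than at 4AM in both diets, without overlap.

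**Figure D4:**
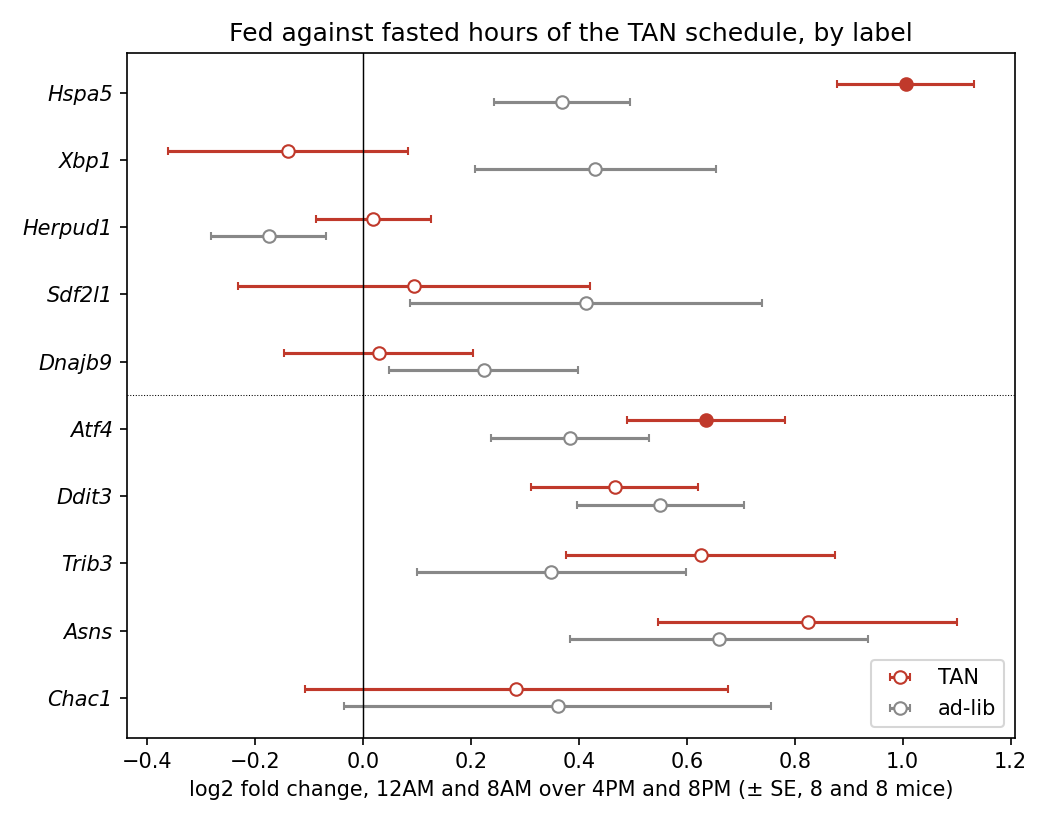
Log2 fold change of fed (12AM and 8AM) over fasted (4PM and 8PM) hours by the sample labels for each member, with SE bars, TAN in red and ad-lib in grey, and filled symbols where the adjusted p was under 0.05. Hspa5 at 1.01 and Atf4 at 0.63 in TAN are the filled symbols, and the dotted line parts the ER arm (top) from the Atf4 arm.

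Between the diets at one time, few differences passed the test. Chac1 at 8PM was 3.90, 4.01, 6.49 and 10.8 CPM in TAN and 0.438, 1.06, 2.09 and 4.17 CPM in ad-lib, with a log2 fold change of 1.69 (SE 0.57, adjusted p = 0.0464, edgeR) and overlapping groups. It was the only call among 60 member and time pairs, while 15 pairs had an unadjusted p under 0.05. These were 1 at 8AM, 3 at 12PM, 3 at 4PM, 4 at 8PM, 3 at 12AM and 1 at 4AM, each of 10, beside 6.58%, 7.37%, 33.2%, 28%, 17.5% and 2.64% of all genes in that order. Of all genes, 11.7% were called at 8PM and 15.3% at 4PM, against 0.015%, 0.0901%, 0.15% and 0% at 8AM, 12PM, 12AM and 4AM, so that 1 of 10 at 8PM and 0 of 10 at 4PM were no more than the share of all genes. The Chac1 call was lost in 26 of 48 fits that left out 1 library (adjusted p up to 0.138), in a separate fit of the 8 libraries of 8PM (adjusted p = 0.260) and with the replicate block (adjusted p = 0.0507).

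The libraries of the diets did not overlap for 3 of 10 members at 12PM, where 4.84% of all genes were so separated, all 3 lower in TAN. Beside Hspa5 these were Herpud1, at 79.9 to 87.7 CPM in TAN and 94.3 to 129.9 CPM in ad-lib, and Atf4, at 95 to 125 CPM against 128 to 199 CPM, and none passed the test (adjusted p = 0.527 for Herpud1 and 0.703 for Atf4, edgeR). At 8PM this held for 2 members (beside 16.1% of all genes). Hspa5 was 298 to 394 CPM in TAN and 417 to 514 CPM in ad-lib (log2 fold change -0.45, SE 0.18, adjusted p = 0.0869, edgeR), and Herpud1 was 128.2 to 151 CPM against 120 to 127.8 CPM. Trib3 at 12AM, with 11.4 to 20.4 CPM in TAN and 4.69 to 7.91 CPM in ad-lib, was the 1 member so separated at that time (beside 9.13% of all genes), and at 4AM there were 0 (beside 3.09%).

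At 4PM the libraries of the diets did not overlap for 4 members, where 30.6% of all genes were so separated. Xbp1 was 366 to 600 CPM in TAN and 236 to 355 CPM in ad-lib, and Asns was 100 to 145 CPM against 47.2 to 79.0 CPM. Herpud1 was 89.0 to 102 CPM in TAN and 107 to 135 CPM in ad-lib, and Atf4 was 76.8 to 98.3 CPM against 101 to 148 CPM. None of the 4 passed the test (adjusted p = 0.138, 0.114, 0.0718 and 0.213 in that order, edgeR). The 4 differences thus lay in both directions at a time at which the marker sums of 3 cell types also did not overlap.

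Averaged over the 6 times, the diets did not differ in any member by the test (0 of 10, where 5.42% of all genes were called, with 1 member at an unadjusted p under 0.05, beside 21.5% of all genes). The log2 differences ran from -0.35 (SE 0.19, adjusted p = 0.277) for Sdf2l1 to 0.51 (SE 0.23, adjusted p = 0.176) for Chac1 (edgeR). For Hspa5 the 95% interval of the mean difference was -0.19 to 0.10 log2 units, and for Atf4 it was -0.32 to 0.02.

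The wider pathway was read from 10 lists of 128 genes, of which 126 were matched and tested. Over time in TAN, 36 of 126 were called (28.6%, beside 23% of all genes), and in ad-lib 0 of 126 (beside 0.0551%). The diet by time interaction called 16 of 126 (12.7%, beside 8.98% of all genes). The stress sensors Ern1 and Atf6 were called over time in TAN (adjusted p = 0.0305 and 0.00669, edgeR). Both were also called in the interaction (adjusted p = 0.0474 and 0.0300, edgeR). In fed against fasted hours of TAN, 7 of 126 were higher and 1 lower (6.35% together, beside 4.3% of all genes), and in ad-lib 0 of 126 were called. The test of the difference between the diets in this contrast called 4 of 126 (3.17%, beside 0.831% of all genes). These were Hsp90b1 (0.74 log2 units more in TAN, SE 0.19, adjusted p = 0.0406), Iars (1.24, SE 0.31, adjusted p = 0.0406), Tars (0.61, SE 0.14, adjusted p = 0.0327) and Stc2 (-1.32, SE 0.31, adjusted p = 0.0322), all in edgeR. With 1 library left out these calls were lost in 20 (Hsp90b1), 17 (Iars), 6 (Tars) and 10 (Stc2) of 48 fits.

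Among 19 ER chaperones and folding enzymes, 2 were higher in fed hours of TAN and 0 lower. Hsp90b1, the ER form of Hsp90 (Grp94), was 286 to 375 CPM in fed and 114 to 334 CPM in fasted hours, with a log2 fold change of 0.75 (SE 0.13, adjusted p = 0.000367, edgeR). Calr, the lectin chaperone calreticulin, was 359 to 404 CPM against 232 to 350 CPM, with no overlap, and a log2 fold change of 0.44 (SE 0.08, adjusted p = 0.000995, edgeR). Both encode abundant luminal chaperones like BiP, and the list median was 0.17 beside 0.08 for all genes.

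Of 11 tRNA synthetases, the enzymes that charge tRNAs with amino acids, 3 were higher in fed hours of TAN and 0 lower, with a list median of 0.37. Tars was 61.2 to 75.2 CPM against 33.9 to 52.7 CPM with no overlap (log2 fold change 0.65, SE 0.10, adjusted p = 7.41e-05, edgeR). Iars (1.04, adjusted p = 0.00333) and Wars (0.44, adjusted p = 0.00407) rose as well. Of the other Atf4-related lists, the amino acid transporter subunit Slc3a2 (0.32, adjusted p = 0.0386) was 1 of 9 transporters called, the eIF2 kinase Eif2ak2, also known as Pkr (0.78, adjusted p = 0.0472), was 1 of 15 eIF2 pathway genes called, and Stc2, a secreted glycoprotein, was lower in fed hours (-1.09, SE 0.22, adjusted p = 0.00200) as 1 of 14 further effectors (edgeR throughout). With 1 library left out the call of Slc3a2 was lost in 28 and that of Eif2ak2 in 32 of 48 fits. Both were also lost with RLE scaling, without a count filter, without TAN replicates 1 and 2 at 8PM and with the replicate block (adjusted p 0.0524 and 0.058 in edgeR). In this contrast no gene was called in the lists of stress sensors (0 of 10), ER-associated degradation (0 of 13) or ER translocation (0 of 14). Nor was any in those of amino acid synthesis (0 of 13) or mitochondrial chaperones (0 of 8). With the 12-h shift of the labels the direction of each of these 8 genes reversed.

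**Figure D5:**
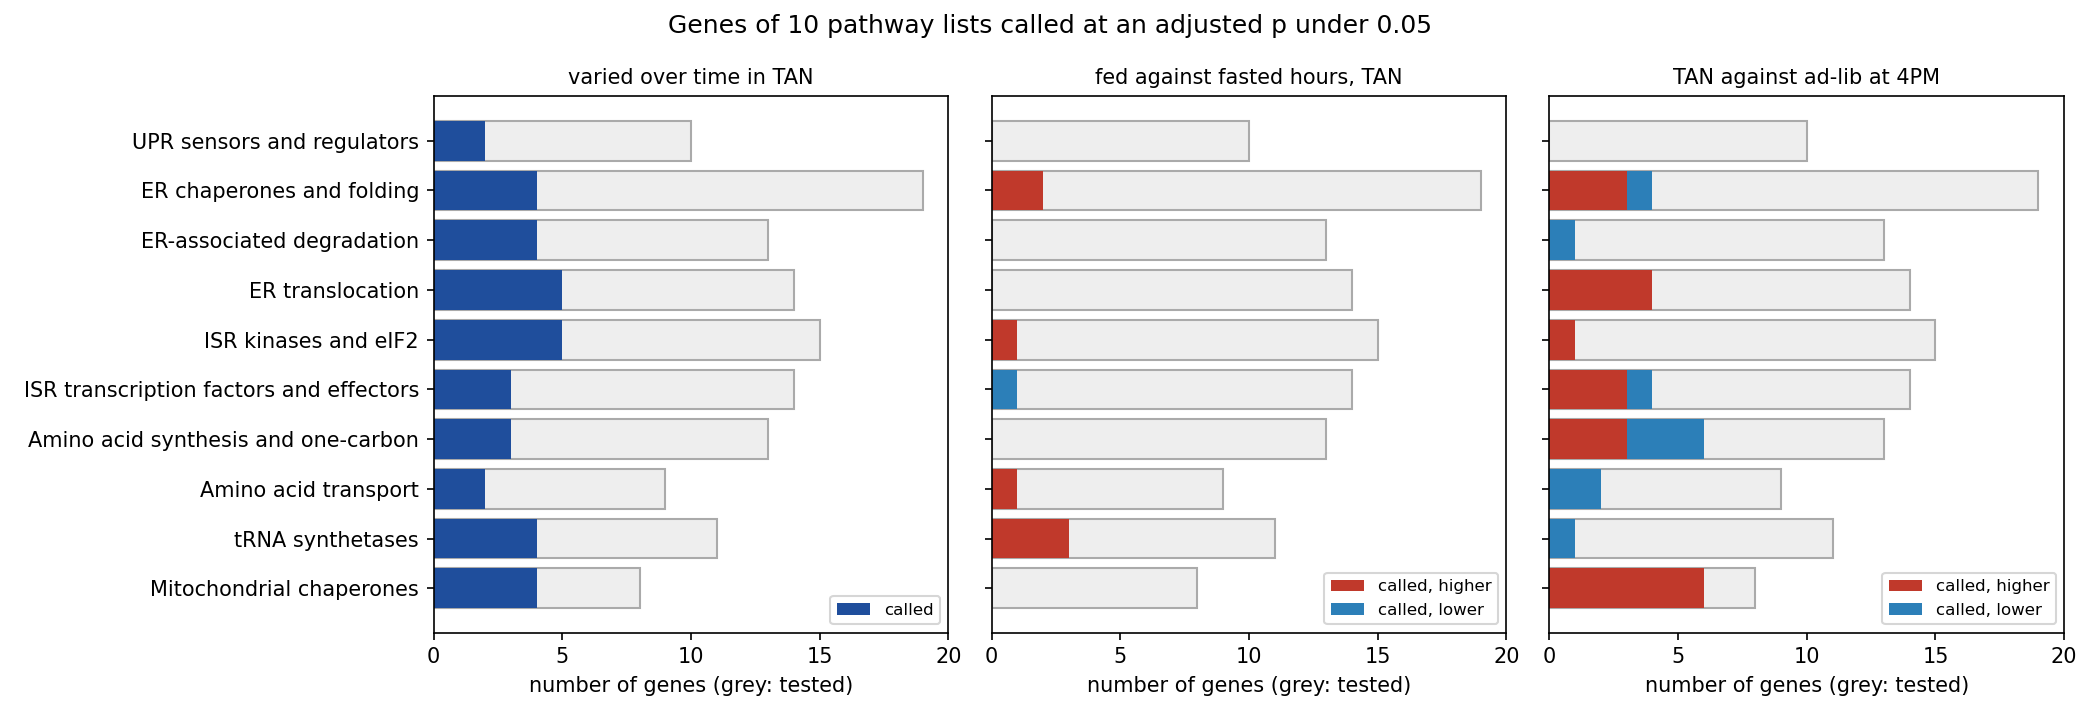
Number of genes called at an adjusted p under 0.05 in each of 10 pathway lists (coloured) over the number tested (grey), for variation over time in TAN (left), fed against fasted hours in TAN (middle) and TAN against ad-lib at 4PM (right), with higher in red and lower in blue. All called genes of the mitochondrial chaperone list at 4PM (6 of 8) were higher in TAN, a count that fell with cell marker covariates. Those marker sums did not overlap between the diets at 4PM.

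Averaged over the day, 5 of 126 list genes were higher in TAN and 0 lower (3.97%, beside 5.42% of all genes called and 2.68% called higher). Psph, the last enzyme of serine synthesis, had the largest of these differences, with a log2 fold change of 0.59 (SE 0.10, adjusted p = 0.000246, edgeR) and a mean of 44.6 CPM in TAN against 29.2 CPM in ad-lib. At 4PM it was 32.4 to 46.2 CPM in TAN and 14.5 to 19.9 CPM in ad-lib. This log2 fold change was 0.55 to 0.61 under the other scalings, filters, covariates and tools, past the threshold in each. The other 4 were the mitochondrial co-chaperone Dnaja3 (0.28), the eIF2B subunits Eif2b1 (0.27) and Eif2b5 (0.18), and the seryl-tRNA synthetase Sars (0.15), with adjusted p of 0.0439, 0.0414, 0.0355 and 0.0429 (edgeR). With 1 library left out these calls were lost in 32, 28, 5 and 31 of 48 fits in that order, and all 4 were lost without a count filter.

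At 4PM 29 of 126 list genes were called, 20 higher and 9 lower in TAN (23%, beside 15.3% of all genes, of which 6.54% higher and 8.77% lower). The count was 0 with the lymphocyte or the plasma cell markers as a covariate and 1 with the adipocyte markers. None of these 3 marker sums overlapped between the diets at 4PM, so the covariate fits cannot fully part marker level from diet there. The count was 2 without ad-lib replicate 3 at 4PM. The higher genes included 6 of 8 in the mitochondrial chaperone list, led by the protease subunit Clpp (log2 fold change 0.95), Hspa9 (0.88) and Hspd1 (0.87). They also included the serine synthesis enzymes Psph (1.18) and Phgdh (1.10) and the transsulfuration enzyme Cth (1.52). The effectors Atf5 (1.2), Eif4ebp1 (1.13) and Nupr1 (1.13) were higher, as were the ER folding genes Fkbp2 (0.96), Sil1 (0.73) and P4hb (0.63). The same held for the ER translocation genes Spcs1 (0.77), Ssr2 (0.70) and Ssr4 (0.69), and for Eif2b1 (0.59). The 9 lower genes were Pmaip1 (-3.38), which encodes the apoptosis factor Noxa, Mthfd1l (-2.73), Derl3 (-2.69), a degradation component known from secretory cells, Slc7a5 (-2.08), Ero1lb (-1.24), Aldh18a1 (-1.24), Iars (-1.12), Slc38a2 (-0.90) and Got1 (-0.87). The adjusted p of the genes named here ran from 0.00705 (Psph) to 0.0483 (Aldh18a1) in edgeR. The lymphocyte and plasma cell sums of the diets did not overlap at this time. At 8PM 16 of 126 list genes were called, 5 higher and 11 lower in TAN (12.7%, beside 11.7% of all genes). The lower genes included the stress sensors Atf6 (-1.37, adjusted p = 0.00276) and Eif2ak3 (-0.68, adjusted p = 0.0405), both in edgeR. These 8PM calls were not checked without TAN replicates 1 and 2 at 8PM.

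The genes whose log2 CPM followed each arm most closely were read by Spearman correlation with the arm mean, as a description over libraries that share depth and tissue composition. Over 48 libraries the ER arm was followed by Manf (0.79), an ER stress-induced secreted factor, Trmt61b (0.77), Sf3b6 (0.77), Impa1 (0.77) and Cdk2ap2 (0.76). Within the 24 TAN libraries these were Trmt61b (0.83), Plekhf2 (0.80), Gm13736 (0.80), Ebna1bp2 (0.80) and Nop16 (0.77), and within the 24 ad-lib libraries H2afv (0.86), Cdk2ap2 (0.86), Dpy30 (0.85), Hacd3 (0.84) and Nck1 (0.84). The Atf4 arm was followed over 48 libraries by Sc5d (0.86), Hspb8 (0.86), Phlda3 (0.85), Lep (0.85) and Bmpr1a (0.84). Of these, Lep encodes the adipocyte hormone leptin and is itself among the adipocyte markers used here. A correlation over 0.5 was common, with 4.84% of genes for the ER arm and 12.4% for the Atf4 arm over 48 libraries. These shares were 4.57% and 11.3% within TAN, and 9.41% and 16.3% within ad-lib. Within TAN the genes closest to the Atf4 arm were Phlda3 (0.92), Tmem41b (0.90), Rpp14 (0.90), Crk (0.89) and Eif2b3 (0.89). Within ad-lib they were Prrg3 (0.89), Bmpr1a (0.89), Cd99l2 (0.89), Cd36 (0.88) and Eci2 (0.88).

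Correlations between members were read over all libraries of a diet, which differ in time point as well as in mouse. Over the 24 TAN libraries the median Spearman correlation was 0.14 among the 10 pairs within the ER arm (-0.38 to 0.67), 0.42 among the 10 pairs within the Atf4 arm (0.06 to 0.79) and 0.34 among the 25 pairs between the arms (-0.36 to 0.68). In ad-lib mice the medians were 0.20, 0.34 and 0.26.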

How the data were processed

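RNA-seq of inguinal fat was deposited as a table of gene counts for 48 libraries and a table of group means in FPKM. The submitters' processing notes name TopHat 1.3.3, DESeq2 1.20.0, edgeR and limma without saying what each did, and the counting tool is not given in the sources used here. The authors deposited raw read counts per gene, not normalized, and mean FPKM per group, of which the counts were tested here and the authors' mean FPKM served only to check the labels. Of 54409 genes found in both, 98.3% had the same start and end in the deposited table and in the GRCm38 annotation used.

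Counts were scaled by TMM, filtered (minimum count 10, edgeR's filterByExpr) and fitted in 1 quasi-likelihood model of 12 groups with 4 mice each (R 4.3.3, edgeR 4.0.16, limma 3.58.1). Benjamini-Hochberg adjustment covered all 19977 genes tested, and a gene was called at an adjusted p under 0.05. SEs were taken from the log2 fold change and F. CPM use TMM library sizes. Libraries held 15636378 to 29913310 counts, which limits precision mainly for Chac1 and Trib3. The 24-h and 12-h components are cosine and sine contrasts over the 6 group means. Scripts were tested on simulated counts.

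The members and pathway lists were chosen with earlier results of these data known. Beyond the 10 members, up to 3 called genes per list and direction with the largest log2 fold change were named, in the mean diet effect, in fed against fasted hours and at the time with most list genes called, together with the 5 genes most correlated with each arm. Hm13 and Mars1 were not matched by symbol. The count table holds the latter under its older symbol Mars, and this gene was left out of the tRNA synthetase list. Alternatives were other filters and scalings, covariates for marker levels, the replicate number as a block, DESeq2 1.42.0 and limma voom, times shifted by 12 h, and leaving out each library. Replicate numbers were read as names of mice, each of which gave 1 time point.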

Additional observations from a re-analysis of the deposited data

Results flagged for a closer look

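Of 120 groups of 4 libraries (10 members, 12 groups), 6 held a library far from the other 3 by Dixon's criterion, about the 1 in 20 that chance gives. Hspa5 in TAN replicate 2 at 12AM was 1132 CPM, where the nearest library had 730 CPM; without it the fed against fasted log2 fold change of Hspa5 in TAN was 0.91. Dnajb9 in ad-lib replicate 4 at 8PM was 74.9 CPM against 48.9 CPM in the nearest library. Atf4 in TAN replicate 1 at 4PM was 76.8 CPM against 95 CPM. Ddit3 in TAN replicate 1 at 8PM was 41.6 CPM against 27.1 CPM, and this library is 1 of the 2 with low adipocyte sums. Trib3 in TAN replicate 3 at 12AM was 20.4 CPM against 12.7 CPM. Chac1 in TAN replicate 4 at 8AM was 2.19 CPM against 6.82 CPM.

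The time course of Hspa5 differed between TAN and ad-lib mice by the test of the interaction (adjusted p = 0.0296, edgeR F test over all genes), and this call was lost without ad-lib replicate 4 at 8AM (adjusted p = 0.0627, edgeR).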

How the results depend on the processing

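The 7 members called over time in TAN were 6 to 9 in every setting, including an unadjusted threshold. When all times were moved by 12 h, the fed against fasted log2 fold changes in TAN became -0.50 for Hspa5, -0.079 for Atf4, -0.086 for Trib3, -0.63 for Asns, 0.088 for Xbp1, 0.68 for Stc2, -0.69 for Iars, -0.42 for Tars, -0.16 for Wars, -0.94 for Eif2ak2, -0.64 for Hsp90b1, -0.38 for Calr and -0.083 for Slc3a2, with 1 member and 4 list genes called. In ad-lib they became -0.053 for Atf4, -0.045 for Ddit3 and 0.21 for Herpud1, and the diet difference became -0.66 for Hspa5, -0.86 for Hsp90b1, -0.94 for Iars, -0.50 for Tars and 0.75 for Stc2. Values near 0 in TAN changed sign: Herpud1 was -0.021 with at least 10 counts in every library, -0.015 with RLE scaling and in DESeq2, -0.022 and -0.027 with the plasma cell and lymphocyte covariates, and -0.025 without TAN replicates 1 and 2 at 8PM. Dnajb9 was -0.013 with at least 10 counts, -0.0076 with RLE scaling, -0.0075 in DESeq2 and -0.14 without those 2 libraries, Sdf2l1 was -0.059 and -0.20 with the lymphocyte and plasma cell covariates, and Xbp1 was 0.20 against the other 4 times. With 1 library left out these 4 ranged from -0.012 to 0.044 (Herpud1), -0.071 to 0.14 (Dnajb9), -0.049 to 0.34 (Sdf2l1) and -0.28 to 0.022 (Xbp1). With the plasma cell covariate the mean diet effect of Sdf2l1 was 0.067 and Pmaip1 at 4PM was 0.42.

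Counts of members called moved as follows. Between diets at single times (1), the count was 0 without a count filter and with the replicate block, 2 in separate fits, 3 with each of the lymphocyte, adipocyte and plasma cell covariates and in DESeq2, 4 without TAN replicates 1 and 2 at 8PM, 15 unadjusted, and 0 to 2 with 1 library left out. For the daily mean (0) it was 1 unadjusted. Over time in ad-lib (0) it was 1 with at least 10 counts or the lymphocyte covariate, 2 with the adipocyte covariate, 4 unadjusted and 0 to 1 with 1 library left out. For the interaction (1) it was 2 with at least 10 counts or the muscle covariate, 3 with the adipocyte covariate, 4 without the 2 libraries, 7 unadjusted and 0 to 4 with 1 left out. For the 24-h component in TAN (3) it was 5 with each of the 3 covariates and without the 2 libraries, 7 unadjusted and 3 to 6 with 1 left out, and in ad-lib (0) 1 with the adipocyte covariate and 4 unadjusted. For the 12-h component it was 1 without the 2 libraries and 5 unadjusted in TAN (3) and 4 unadjusted in ad-lib (0). For fed against fasted hours in TAN (2) it was 5 with the lymphocyte, 4 with the adipocyte and plasma cell covariates, 5 unadjusted, 1 with a log2 fold change above 1 as well, and 2 to 4 with 1 left out. In ad-lib (0) it was 4 unadjusted. For the diet difference of that contrast (0) it was 1 with at least 10 counts, each of the 3 covariates, voom, DESeq2 or unadjusted, 2 without the 2 libraries, and 0 to 1 with 1 left out.

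Of the list genes at 4PM (29), 13 were called without a count filter, 0 with the lymphocyte or plasma cell covariate, 1 with the adipocyte covariate, 53 unadjusted, 13 with a log2 fold change above 1 and 2 to 35 with 1 library left out. In fed against fasted hours of TAN (8), 14 were called with the lymphocyte or plasma cell covariate, 17 with the adipocyte covariate, 3 against the other 4 times, 22 unadjusted, 2 with a log2 fold change above 1 and 6 to 13 with 1 left out. For the diet difference of that contrast (4), 0 were called without a filter or against the other 4 times, 8 with the adipocyte and 9 with the plasma cell covariate, 13 without the 2 libraries, 2 with times moved by 12 h, 25 unadjusted, 2 with a log2 fold change above 1 and 0 to 12 with 1 left out (0 without ad-lib replicate 4 at 8AM, ad-lib replicate 3 at 4PM or TAN replicate 3 at 4PM). For the daily mean (5), 1 was called without a filter, 15 with the adipocyte covariate and without the 2 libraries, 9 in DESeq2, 31 unadjusted, 0 with a log2 fold change above 1 and 1 to 9 with 1 left out. Over time in TAN (36), 74 were called unadjusted, and 22 (without TAN replicate 2 at 12AM) to 66 (without TAN replicate 4 at 8PM) with 1 left out.

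Deviations from the group mean were correlated over 24 pairs of same-numbered TAN and ad-lib libraries of one time. The median was 0.0348 (-0.33 to 0.50), with 5 above 0.1. Whether a replicate number marks a batch across times or within a diet was not examined in this way. With the replicate block the adjusted p of Chac1 at 8PM was 0.0507 (edgeR). The covariates for adipocyte and plasma cell markers and the fits without TAN replicates 1 and 2 at 8PM were chosen after seeing the data. DESeq2 was not run for tests over several times. Chac1 could not be fitted with at least 10 counts in every library, since it fails that filter.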
